A study of Mus musculus with 13 samples.

Results

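The sarcomere genes examined here were Ttn (titin), Nebl (nebulette), Myom1 and Myom2 (myomesins 1 and 2), Ldb3 (also called Cypher or ZASP), Actn2 (alpha-actinin 2), Csrp3 (muscle LIM protein), Flnc (filamin C) and Des (desmin). They were taken by name, 9 genes of 36109 with a transcript in the processed files, and all 9 passed the filter on low counts in both tissues. RNA was sequenced from whole hearts of 4 Hmox2+/+ and 3 Hmox2-/- mice and from aortic endothelial cells (ECs) of 3 mice of each genotype, all kept in room air. Hmox2-/- mice lack heme oxygenase 2, an enzyme that breaks down heme, and were deleted for the gene throughout the body. The Hmox2+/+ mice were their littermates. The labels give neither age nor sex, and the authors describe the mice used for sequencing as young. EC RNA was flushed from the aortic lumen with lysis reagent, without a cell sort. The authors took heart RNA from the pulverized whole heart, which mixes its cell types. In such bulk RNA, fewer cells of a type and less RNA per cell cannot be told apart.

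Titin reaches from the Z-disc at the border of the sarcomere, the repeating unit of striated muscle, to the M-band at its centre. At the Z-disc, alpha-actinin 2 crosslinks actin filaments, and nebulette, the Ldb3 protein, muscle LIM protein and filamin C are bound to it or near it. Desmin forms the intermediate filaments that tie neighbouring Z-discs together. At the M-band, the myomesins link titin to the thick filaments. Cardiac muscle splices the long Ttn pre-mRNA into several isoforms, a step that the RNA-binding protein RBM20 controls, and mutations in titin are a known cause of dilated cardiomyopathy.

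Total estimated counts were 29815090 to 31619776 in 6 of the heart libraries, but 7268626 in the first Hmox2+/+ heart. They were 26067147 to 31138642 in the ECs. Hmox2 itself was measured at 39.8 ± 2.26 CPM (SD, n = 4) in Hmox2+/+ and 8.08 ± 0.724 CPM (n = 3) in Hmox2-/- hearts, and at 68.7 ± 6.54 and 13.6 ± 1.08 CPM (n = 3 each) in ECs. CPM are counts scaled to a common library total after normalization by the trimmed mean of M-values (TMM). Hmox2 passed the test in both tissues (adjusted p = 1.58e-07 in heart and 1.31e-04 in ECs). The 12 cardiomyocyte markers summed to 52859 to 57288 CPM in Hmox2+/+ and 54099 to 59397 CPM in Hmox2-/- hearts, and the 10 endothelial markers to 3224 to 4696 and 5491 to 6743 CPM in ECs, so that the defining markers of both labels were present. The EC libraries also held markers of other cells at levels of the same order. Sums were 4000 to 6554 CPM in Hmox2+/+ and 4188 to 5118 CPM in Hmox2-/- libraries for 5 adipocyte markers. For 6 fibroblast markers they were 2334 to 4394 and 5733 to 6613 CPM, and for 6 smooth muscle markers 3274 to 6449 and 1060 to 3652 CPM. Mitochondrially encoded genes took 37.3% to 43.9% of the counts of Hmox2+/+ and 22.3% to 27.0% of those of Hmox2-/- hearts.

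In hearts of Hmox2-/- mice, titin, both myomesins and nebulette had lower counts, desmin and muscle LIM protein had higher counts, and alpha-actinin 2, Ldb3 and filamin C did not pass the test. A gene was called when its Benjamini-Hochberg adjusted p from edgeR's quasi-likelihood test was at most 0.05, adjusted over all 13816 genes tested in heart. Of the 9 genes 4 were called lower and 2 higher. Of all genes tested in heart 16.2% were called lower and 17.2% higher, and 19.8% were lower and 20.6% higher without overlap of the genotypes, as were the 4 and the 2. Only Ttn among the 9 also had a log2 fold change of at most -1, as did 4.05% of all genes. Markers of other cell types of the heart also moved with genotype. Of 6 smooth muscle markers 3 were called higher (sums 147 to 205 CPM in Hmox2+/+ and 197 to 303 CPM in Hmox2-/- hearts), of 6 macrophage markers 3 higher (99.6 to 147 and 176 to 301 CPM), of 10 endothelial markers 3 higher and 1 lower (579 to 704 and 754 to 785 CPM) and of 6 fibroblast markers 1 higher and 2 lower (446 to 519 and 505 to 624 CPM). Of the 12 cardiomyocyte markers 5 were called higher and 1 lower, and of 4 skeletal muscle markers tested 2 higher. The part of these cell types in the differences was not tested.

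Ttn (chromosome 2, 76534136 to 76812891 on the minus strand of GRCm39) was at 3344, 3755, 3068 and 2981 CPM in Hmox2+/+ hearts and at 608, 1370 and 1434 CPM in Hmox2-/- hearts. Every Hmox2-/- heart lay below every Hmox2+/+ heart, and the first Hmox2-/- heart lay far below the other Hmox2-/- hearts. The mean of the Hmox2-/- hearts was 34.6% of that of the Hmox2+/+ hearts, and the log2 fold change was -1.53 (standard error 0.25, adjusted p = 0.00153). Leaving out any single library gave values between -1.73 and -1.23, all called.

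**Figure D1:**
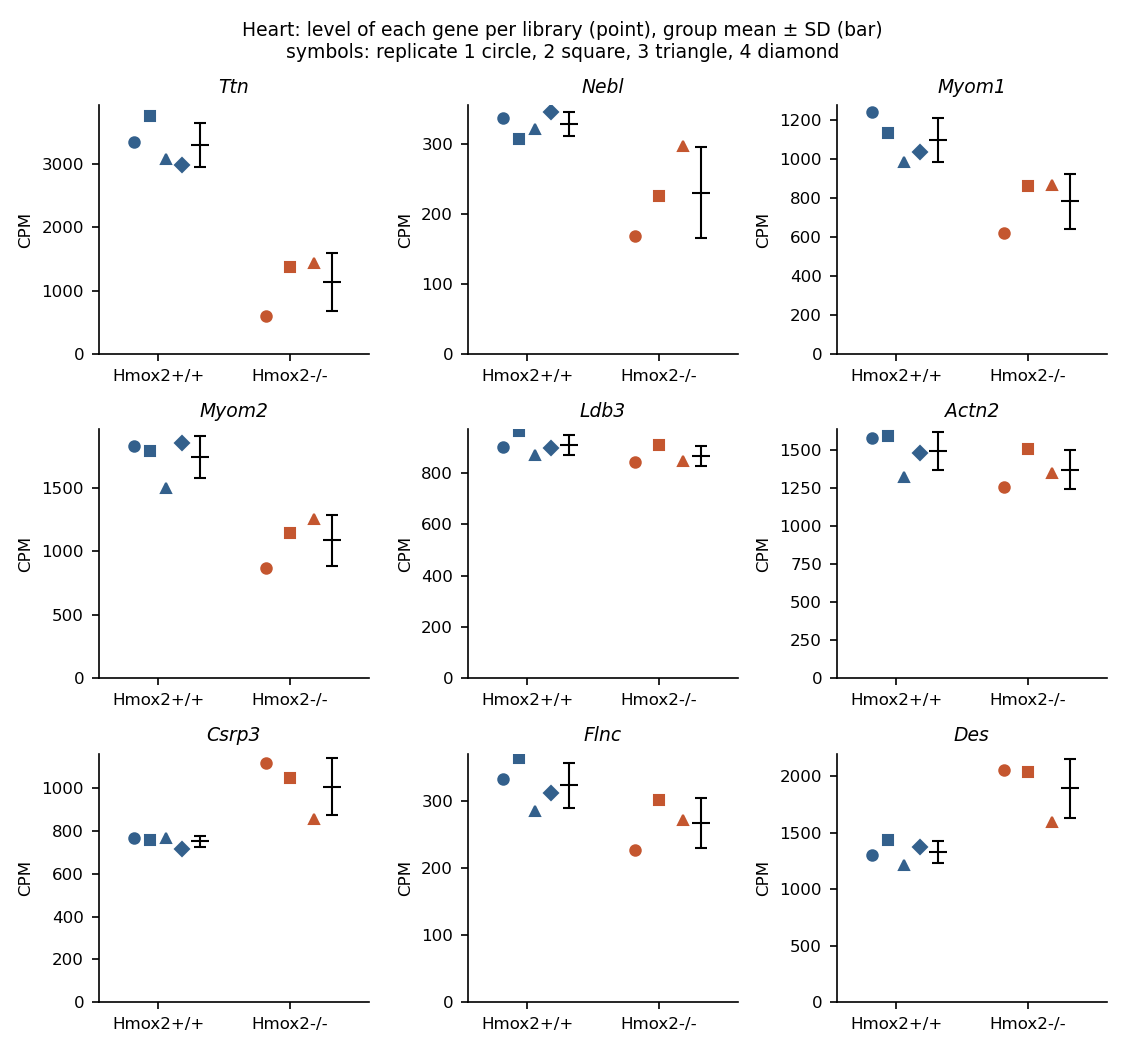
Level of each of the 9 genes in heart, in CPM on a linear axis from 0, for each library (points, shaped by replicate number) with the group mean ± SD (black bars) of 4 Hmox2+/+ (blue) and 3 Hmox2-/- (orange) hearts. Ttn, Nebl, Myom1, Myom2, Csrp3 and Des show no overlap between genotypes, and the first Hmox2-/- heart (circle) has the lowest Ttn, 608 CPM, and the highest Csrp3, 1114 CPM.

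The M-band genes were lower to a smaller degree. Myom1 was at 1245, 1133, 986 and 1036 CPM in Hmox2+/+ and at 623, 865 and 868 CPM in Hmox2-/- hearts. Its log2 fold change was -0.49 (standard error 0.14, adjusted p = 0.0187). Myom2, whose product is also called M-protein, was at 1830, 1791, 1502 and 1851 CPM in Hmox2+/+ hearts. It was at 865, 1147 and 1252 CPM in Hmox2-/- hearts, with a log2 fold change of -0.68 (standard error 0.14, adjusted p = 0.00422). The genotypes did not overlap for either myomesin, and the first Hmox2-/- heart was the lowest for both. The call of Myom1 was lost without the first or the second Hmox2+/+ heart.

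Among the Z-disc genes the direction differed from gene to gene. Nebl was at 337, 308, 322 and 346 CPM in Hmox2+/+ and at 169, 226 and 297 CPM in Hmox2-/- hearts (log2 fold change -0.51, standard error 0.16, adjusted p = 0.0296). The highest Hmox2-/- heart (297 CPM) came near the lowest Hmox2+/+ heart (308 CPM), and the call was lost when any library but the third Hmox2-/- heart was left out (adjusted p 0.0504 to 0.0956). Des, in contrast, was at 1301, 1435, 1212 and 1377 CPM in Hmox2+/+ hearts and at 2051, 2034 and 1591 CPM in Hmox2-/- hearts. It rose by a log2 fold change of 0.51 (standard error 0.11, adjusted p = 0.0074) without overlap. Csrp3, a LIM-domain protein of the Z-disc and a sensor of stretch, was at 767, 757, 765 and 715 CPM in Hmox2+/+ and at 1114, 1045 and 856 CPM in Hmox2-/- hearts. Its log2 fold change was 0.42 (standard error 0.11, adjusted p = 0.0124), and it was highest in the heart in which Ttn was lowest. That call was lost without the second Hmox2-/- heart.

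Ldb3, Actn2 and Flnc overlapped between genotypes. Ldb3, a PDZ and LIM protein that binds alpha-actinin, was at 870 to 961 CPM in Hmox2+/+ and 840 to 910 CPM in Hmox2-/- hearts (log2 fold change -0.07, standard error 0.09, adjusted p = 0.596). Actn2 was at 1318 to 1589 and 1253 to 1504 CPM (log2 fold change -0.12, standard error 0.11, adjusted p = 0.402). Flnc, an actin crosslinker, was at 286 to 364 and 227 to 301 CPM (log2 fold change -0.28, standard error 0.12, adjusted p = 0.0969). These estimates do not show that the 3 genes were alike in both genotypes.

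Per transcript length, the order of the genes in Hmox2+/+ hearts was unlike the order of their counts. TPM, the deposited abundance, divides counts by transcript length and scales the sum to a common total. Csrp3 led with 994 ± 99.5 TPM (SD, n = 4), followed by Actn2 (484 ± 78.01), Des (433 ± 65.8), Ldb3 (409 ± 60.8) and Myom2 (339 ± 56.3), whose ranges overlapped from each to the next. Myom1 (201 ± 34.6), Nebl (71.8 ± 6.85), Ttn (49.8 ± 8.67) and Flnc (35.5 ± 6.60) came last. The ranges of Ttn (41.8 to 61.3 TPM) and Flnc (27.9 to 43.7 TPM) overlapped, although Ttn had 2981 to 3755 CPM and Flnc 286 to 364 CPM. In Hmox2-/- hearts Ttn was at 26.6 ± 10.4 TPM and Csrp3 at 1647 ± 117 TPM (n = 3). Des was at 754 ± 60.6, Actn2 at 551 ± 65.6 and Ldb3 at 523 ± 23.6 TPM. Nebl (73.3 ± 23.1 TPM), Myom1 (197 ± 30.5), Myom2 (290 ± 49.5) and Flnc (36.0 ± 6.02) overlapped with their ranges in Hmox2+/+ hearts. The lower counts of Nebl and both myomesins were thus not seen as separate genotypes in TPM. TPM were not normalized between libraries, and the median log2 fold change of all heart genes on the log2(TPM + 1) scale was 0.22.

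Fold changes in heart followed transcript length across all genes. The median log2 fold change was 0.55 for genes with a mean transcript length under 1000 bases, 0.02 between 2000 and 3000 bases, -0.27 between 4000 and 6000, -0.48 between 6000 and 10000 and -0.72 for the 124 genes of 10000 bases or more. Spearman's rho between length and fold change was -0.51 across 13816 genes, which share their libraries and are not independent. In ECs rho was 0.11 across 15301 genes. Their medians were -0.22 under 1000 bases, the bin that holds Csrp3, -0.06 between 1000 and 2000 bases and between 0.00 and 0.05 for longer genes. Lengths were weighted by TPM, and Ttn was by this measure 57543 bases long, with a single longer gene tested.

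The size of the trend differed among the Hmox2-/- hearts in the same order as their Ttn level. Relative to the Hmox2+/+ mean, the median of the 931 genes of at least 6000 bases was -0.83 on the log2 scale in the first Hmox2-/- heart, -0.47 in the second and -0.24 in the third. Ttn was at -2.43, -1.26 and -1.19 in these hearts. The 1169 genes under 1000 bases moved the other way, by 0.82, 0.54 and 0.26. In the Hmox2+/+ hearts, including the one of low depth, both medians stayed within 0.03 of 0.

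**Figure D2:**
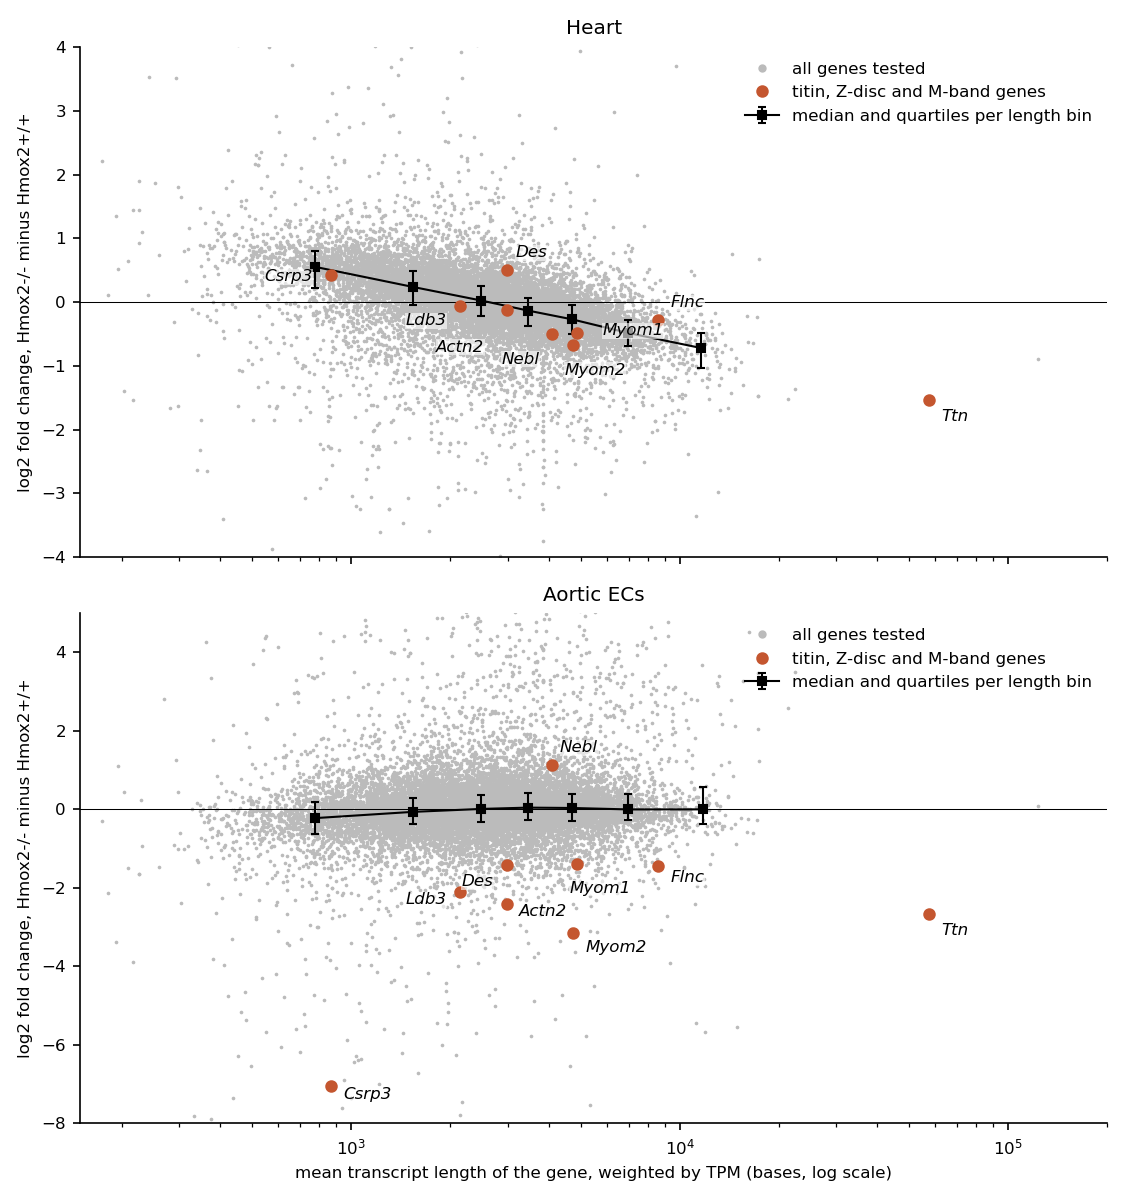
log2 fold change of Hmox2-/- against Hmox2+/+ (vertical axis) by mean transcript length in bases (horizontal axis, log scale) for all genes tested in heart (top) and in ECs (bottom), with the median and quartiles per length bin (black) and the 9 genes (orange). A few genes beyond the vertical limits are not drawn. In heart the medians fall from 0.55 to -0.72 and most of the 9 genes lie near them, with Ttn and Des farthest off, whereas in ECs the medians lie between -0.22 and 0.05 and 8 of the 9 genes lie below the median of their bin.

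Set against the median of their length bin, the 9 genes spanned -0.81 to 0.48 on the log2 scale. Ttn lay at -0.81 from the median of its bin, which holds all genes of 10000 bases or more. Except for Nopchap1 (123179 bases), no other gene in that bin was longer than 22494 bases. The -0.81 is thus not a comparison with genes as long as Ttn. Myom2 lay at -0.41 from the median of its bin, Nebl at -0.24 and Myom1 at -0.22. Nebl was binned at its weighted length of 4079 bases. Its transcript Nebl-202, with 77.8% to 86.2% of its counts in hearts, has 8079 bases. The median of the bin of 6000 to 10000 bases was -0.48, so the -0.24 depends on the measure of length. The offsets for the trend on length used the same weighted lengths. Csrp3, the shortest of the 9 at 869 bases, lay at -0.13 and Flnc at 0.21 from the medians of their bins, and Des, at 2987 bases, at 0.48. Of the 10 longest genes tested in heart, 7 were called lower. Besides Ttn these were Nopchap1 (-0.90), Vmn2r76 (-1.37), Vmn2r53 (-1.52), Vmn2r113 (-1.47), Vmn2r120 (-1.48) and Rnf213 (-0.65), whereas Tmem72 (-0.23), Kmt2a (-0.63) and Vmn2r102 (0.67) did not pass the test.

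When the trend on length was fitted in each library and taken out as an offset, 3 of the 9 genes were still called in heart if lengths above 10000 bases were treated as 10000. These were Ttn (log2 fold change -0.92, adjusted p = 9.51e-04), Myom2 (-0.42, adjusted p = 0.00872) and Des (0.57, adjusted p = 0.00246). Nebl (-0.32, adjusted p = 0.0603) and Myom1 (-0.21, adjusted p = 0.145) no longer passed, and Csrp3 (-0.05, adjusted p = 0.65) and Flnc (0.32, adjusted p = 0.0623) changed sign. Without that cap, Ttn was at -0.08 (adjusted p = 0.633), but no other tested gene was between 22494 and 123179 bases long, and how far Ttn itself set the trend there was not tested. On the log2(TPM + 1) scale tested with limma, on which the median of all genes was shifted to 0.22, Ttn was at -0.95 (adjusted p = 0.00991), Csrp3 at 0.73 and Des at 0.81, and Ldb3 (0.36), Actn2 (0.19) and Flnc (0.02) turned positive without passing the test. Nebl, Myom1 and Myom2 were not called on that scale. With counts rebuilt from TPM scaled by length, Ttn (-1.24), Myom2 (-0.56), Csrp3 (0.41) and Des (0.48) were called, and Nebl (-0.32, adjusted p = 0.146) and Myom1 (-0.35, adjusted p = 0.0547) were not.

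**Figure D3:**
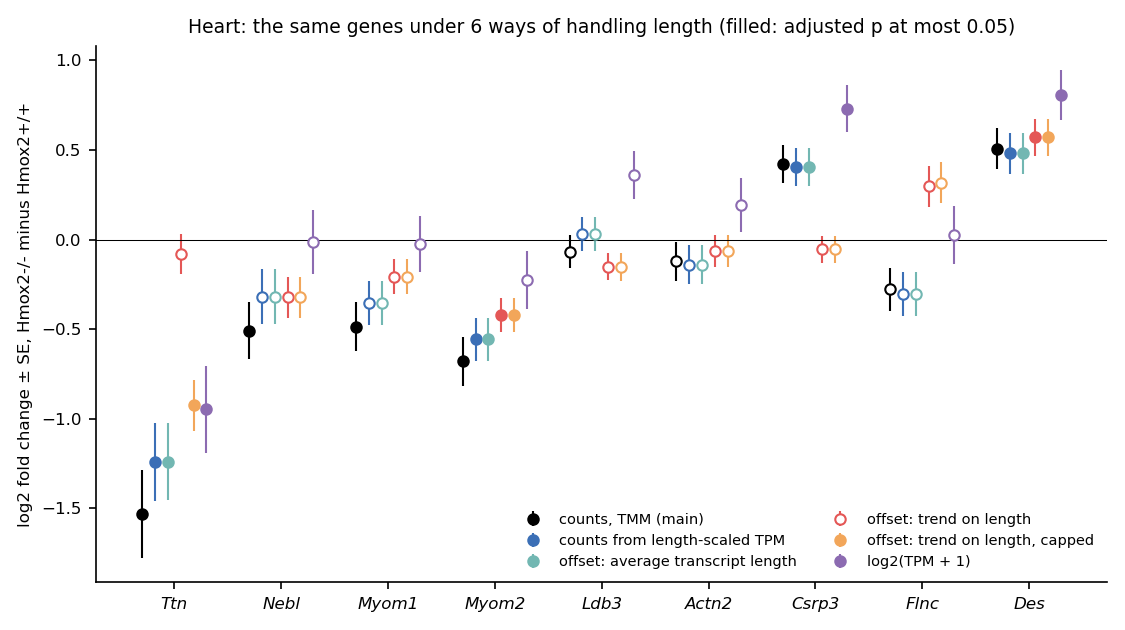
log2 fold change ± SE in heart (vertical axis) of each of the 9 genes under 6 ways of handling transcript length (colours), with filled points where the adjusted p was at most 0.05. Des is positive and called in all 6, Ttn is negative in all 6 and called in 5 of them, and Csrp3 falls from 0.42 to -0.05 with the offset for the trend.

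The genes whose level over the 7 hearts was most like that of Ttn were 3425401B19Rik (Pearson's r 0.997), Rrbp1 (0.995), Ints7 (0.994), Igdcc4 (0.993) and Kmt2d (0.992), among 7517 genes of at least 10 CPM compared on the log2 scale. All are computed over the same 7 libraries, which fall into 2 genotypes. Among the 9 genes, Myom2 (0.97), Myom1 (0.96), Nebl (0.92) and Flnc (0.88) were next to Ttn, Actn2 (0.68) and Ldb3 (0.66) less so, and Des (-0.88) and Csrp3 (-0.92) ran opposite to it.

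Of 24 listed Ttn transcripts, Ttn-201, Ttn-202 and Ttn-204 held at least 5% of the Ttn counts of some heart. Ttn-201 has 191 exons and 26938 codons (81843 bases in the files), Ttn-204 has 312 exons, 33467 codons and 100404 bases, and Ttn-202 is a short form of 45 exons, 5508 codons and 16891 bases. It starts with Ttn-201, ends in an exon of its own and corresponds to the form known as novex-3. That exon opens at chr2:76750708-76750807 on the minus strand of GRCm39, and Ttn-201 skips it between 76740297 and 76751895. The first 100 bases of the exon (capitals) after 20 bases of the exon before it, and the junction by which Ttn-201 skips it (capitals mark the bases on both sides), both from GENCODE M39, show where the forms part.

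Ttn-202: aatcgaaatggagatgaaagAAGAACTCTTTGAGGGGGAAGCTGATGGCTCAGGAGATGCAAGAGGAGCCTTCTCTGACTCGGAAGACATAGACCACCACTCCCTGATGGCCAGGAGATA

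Ttn-201: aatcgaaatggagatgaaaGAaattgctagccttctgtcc

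Ttn-201 fell in Hmox2-/- hearts, from 2897 ± 319 to 1001 ± 407 CPM (log2 fold change -1.53, standard error 0.30, adjusted p = 0.0339 over 31575 transcripts, of which 2.57% were called lower and 3.53% higher). The short Ttn-202 was at 150 ± 13.5 and 92.5 ± 24.6 CPM, with a smaller log2 fold change of -0.70 that did not pass the test (standard error 0.19, adjusted p = 0.0708). Ttn-204 was at 176 ± 18.3 and 50.4 ± 35.6 CPM (log2 fold change -1.80, standard error 0.54, adjusted p = 0.0936). The gene-level call of Ttn held without any single library, but that of Ttn-201 was lost without any one of the Hmox2+/+ hearts or the second Hmox2-/- heart (adjusted p 0.0688 to 0.104).

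The share of Ttn counts on Ttn-202 was 4.70%, 4.48%, 4.43% and 4.93% in Hmox2+/+ hearts and 10.4%, 7.97% and 6.90% in Hmox2-/- hearts. Ttn-201 held 88.7% to 89.4% and 85.4% to 86.7%, and neither share overlapped between genotypes. By a two-sided permutation test over all exact regroupings, p was 0.0286 for either, the smallest that 4 against 3 libraries allow, and 0.0643 after adjustment over the 9 Ttn transcripts compared this way. The share of Ttn-204 was 5.26% to 5.66% in Hmox2+/+ hearts and 2.10%, 3.84% and 5.78% in Hmox2-/- hearts (exact p = 0.143). Sequence words found in a single listed Ttn transcript, which help Kallisto divide reads, were few for Ttn-201 and Ttn-204 but not for Ttn-202. Of the 31-base words of Ttn-202, 38.5% occur in no other listed Ttn transcript, compared to 0.314% for Ttn-204 and 0.0329% for Ttn-201.

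Other genes of the Z-disc moved in both directions in heart. Of 27 further Z-disc genes tested, 8 were called lower, 5 higher and 14 not, with a median log2 fold change of -0.21 against -0.01 over all genes. The 5 with the smallest adjusted p were Pdlim3 (-1.31, adjusted p = 7.06e-05) and Synpo2l (-0.58, adjusted p = 0.00369), which bind alpha-actinin, Fhl2 (0.61, adjusted p = 0.00448), a LIM protein bound to titin, the actin-associated Palld (-0.67, adjusted p = 0.00448) and Fhl1 (0.33, adjusted p = 0.0129). Of 15 M-band and titin partners tested, 3 were called lower and 2 higher, with a median of -0.11. The myomesin Myom3 (-0.86, adjusted p = 0.00949) and the kinase Speg (-0.50, adjusted p = 0.0255) fell. Trim54 (0.44, adjusted p = 0.0048), a ubiquitin ligase of muscle, and the autophagy receptor Sqstm1 (0.47, adjusted p = 0.0166) rose. Of 4 splicing factors of titin 2 were called lower. Qki fell from 512 ± 40.9 to 296 ± 50.9 CPM (-0.79 on the log2 scale, adjusted p = 0.00145) and Rbm20 from 229 ± 16.0 to 156 ± 31.01 CPM (-0.56, adjusted p = 0.00947). Qki is 5290 bases long and Rbm20 4091, lengths at which the medians over all genes were below 0 too.

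In aortic ECs, the same genes were measured at a small part of their level in heart, and 8 of 9 were called lower in Hmox2-/- mice, with Nebl called higher. Of 15301 genes tested in ECs 8.06% were called lower and 10% higher, and 3.89% were called lower with a log2 fold change of at most -1, as were the 8. None of the 9 overlapped between genotypes, whereas 18.7% of all genes were lower and 22% higher without overlap. In Hmox2-/- ECs Csrp3 had 0 to 2 and Myom2 6 to 16 counts, so both passed the filter on low counts through the Hmox2+/+ libraries. For both, a lower value without overlap was favoured by the filter and adds no support.

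Ttn was at 4.06, 4.78 and 3.43 CPM in ECs of Hmox2+/+ mice and at 0.425, 0.421 and 1.07 CPM in ECs of Hmox2-/- mice. These levels rest on 110 to 143 and 11 to 29 counts per library. The log2 fold change was -2.67 (standard error 0.43, adjusted p = 0.00919), between -3.25 and -2.45 and called without any single library. With counts rebuilt from TPM scaled by length it was -1.11 and did not pass the test (adjusted p = 0.0966). Transcript Ttn-201 fell by 3.48 on the log2 scale (adjusted p = 0.0162), a call lost without any library but the third Hmox2+/+ library, and Ttn-202 had no count in any EC library of Hmox2-/- mice, against 6 to 11.7 counts in those of Hmox2+/+ mice. In the third Hmox2-/- EC library 67.6% of the 29 Ttn counts were given to Ttn-204. Ttn-205, Ttn-212 and Ttn-216, forms of 1718 to 3406 bases, reached 8.33%, 9.09% and 9.09% of Ttn counts in the first or the second Hmox2-/- EC library, where each share is 1 count of 12 or 11.

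The M-band genes were Myom1, at 74.9, 30.98 and 70.9 CPM in Hmox2+/+ and 28.1, 16.8 and 22.9 CPM in Hmox2-/- ECs (log2 fold change -1.38, standard error 0.34, adjusted p = 0.0322), and Myom2, at 3.47, 5.28 and 2.75 against 0.567, 0.230 and 0.478 CPM (-3.15, standard error 0.44, adjusted p = 0.00607). The Myom2 counts of Hmox2-/- ECs were all on Myom2-202, a transcript with no coding sequence in GENCODE M39. Myom2-201, the full coding form, had 306 counts summed over the Hmox2+/+ and 0 over the Hmox2-/- EC libraries. With the 0 replaced by a floor of 3 counts over the group, the ratio scaled to library totals was 90.1. The 95% exact interval, which includes the counting error of the 306 but not the spread between libraries, begins at 72.8-fold.

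The Z-disc genes of ECs fell to different degrees. Csrp3 had 77 to 412 counts in each Hmox2+/+ EC library (2.84, 13.8 and 4.76 CPM) and 0, 2 and 2 counts in those of Hmox2-/- mice. Summed over libraries and scaled to their totals, 643 and 4 counts gave a ratio of 142 (95% exact interval 55.2 to 522, counting error only). The second Hmox2+/+ library held 412 of the 643 counts, and without it the ratio was 75.8 (29.2 to 281). Actn2 was at 13.2, 10.7 and 7.45 against 1.45, 2.57 and 1.91 CPM (log2 fold change -2.40, standard error 0.31, adjusted p = 0.00459). Ldb3 was at 23.4, 16.6 and 25.1 against 8.64, 3.14 and 3.35 CPM (-2.10, standard error 0.40, adjusted p = 0.0151). Flnc was at 44.4, 35.4 and 59.1 against 20.8, 12.7 and 17.9 CPM (-1.43, standard error 0.24, adjusted p = 0.0104). Des was at 83.2, 66.4 and 59.5 against 25.5, 21.7 and 30.8 CPM (-1.42, standard error 0.18, adjusted p = 0.00421). Without the third Hmox2-/- library 5 of the 8 were called, Myom1, Ldb3 and Flnc being lost, and Myom1 was also lost without the first or the third Hmox2+/+ library or either of the other Hmox2-/- libraries.

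Nebl ran opposite to the others in ECs. It was at 4.50, 6.42 and 5.10 CPM in Hmox2+/+ and at 8.54, 11.6 and 15.1 CPM in Hmox2-/- ECs (log2 fold change 1.14, standard error 0.25, adjusted p = 0.0239). The call was lost without the first Hmox2+/+, the second Hmox2-/- or the third Hmox2-/- library (log2 fold change 0.92 to 1.15, adjusted p up to 0.0909), and with counts rebuilt from TPM scaled by length (0.38, adjusted p = 0.565). On the TPM scale, 2.63 ± 1.73 and 3.17 ± 1.11 TPM (SD, n = 3) overlapped.

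Markers of muscle cells moved with these genes. The 12 cardiomyocyte markers summed to 142, 551 and 194 CPM in Hmox2+/+ ECs and to 12.8, 14.2 and 16.0 CPM in Hmox2-/- ECs, and 11 of the 12 were called lower. All 6 skeletal muscle markers tested, of 7, were called lower, with sums of 72.5, 9.26 and 69.5 against 1.98, 1.88 and 1.62 CPM, and Myh4, a myosin of fast skeletal fibres, was at 0 in every Hmox2-/- EC library. The 6 smooth muscle markers, which include genes of the aortic wall, summed to 6449, 3274 and 5052 against 3652, 1149 and 1060 CPM, and 1 of them, Myh11, was called lower. Csrp3, Myom2 and Ttn were highest in the second Hmox2+/+ EC library, in which the cardiomyocyte sum was highest. Among the Hmox2+/+ libraries Nebl was also highest in the second, and Actn2 and Des were highest in the first. Myom1, Flnc and Ldb3 were lowest in the second among the Hmox2+/+ libraries, as were the skeletal and smooth muscle sums. Of 10 endothelial markers 3 were called higher, 1 lower and 6 neither, and of 6 fibroblast and 6 macrophage markers 3 each were called higher and the others neither, and the 5 adipocyte markers had adjusted p of 0.0627 to 0.828. The part of these cell types in the fall of the 8 genes was not tested. A further fit took the cardiomyocyte markers as a covariate, made by summing their log2 CPM. These markers did not overlap between genotypes, so that with 3 libraries each the fit cannot tell the covariate from genotype. A loss of calls in it therefore shows nothing about the part of these cells. In that fit 3 genes of the whole EC comparison were called, and the 9 genes had adjusted p of 0.0778 (Myom1) to 0.913 (Csrp3), with Ttn at -1.70 (adjusted p = 0.83).

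**Figure D4:**
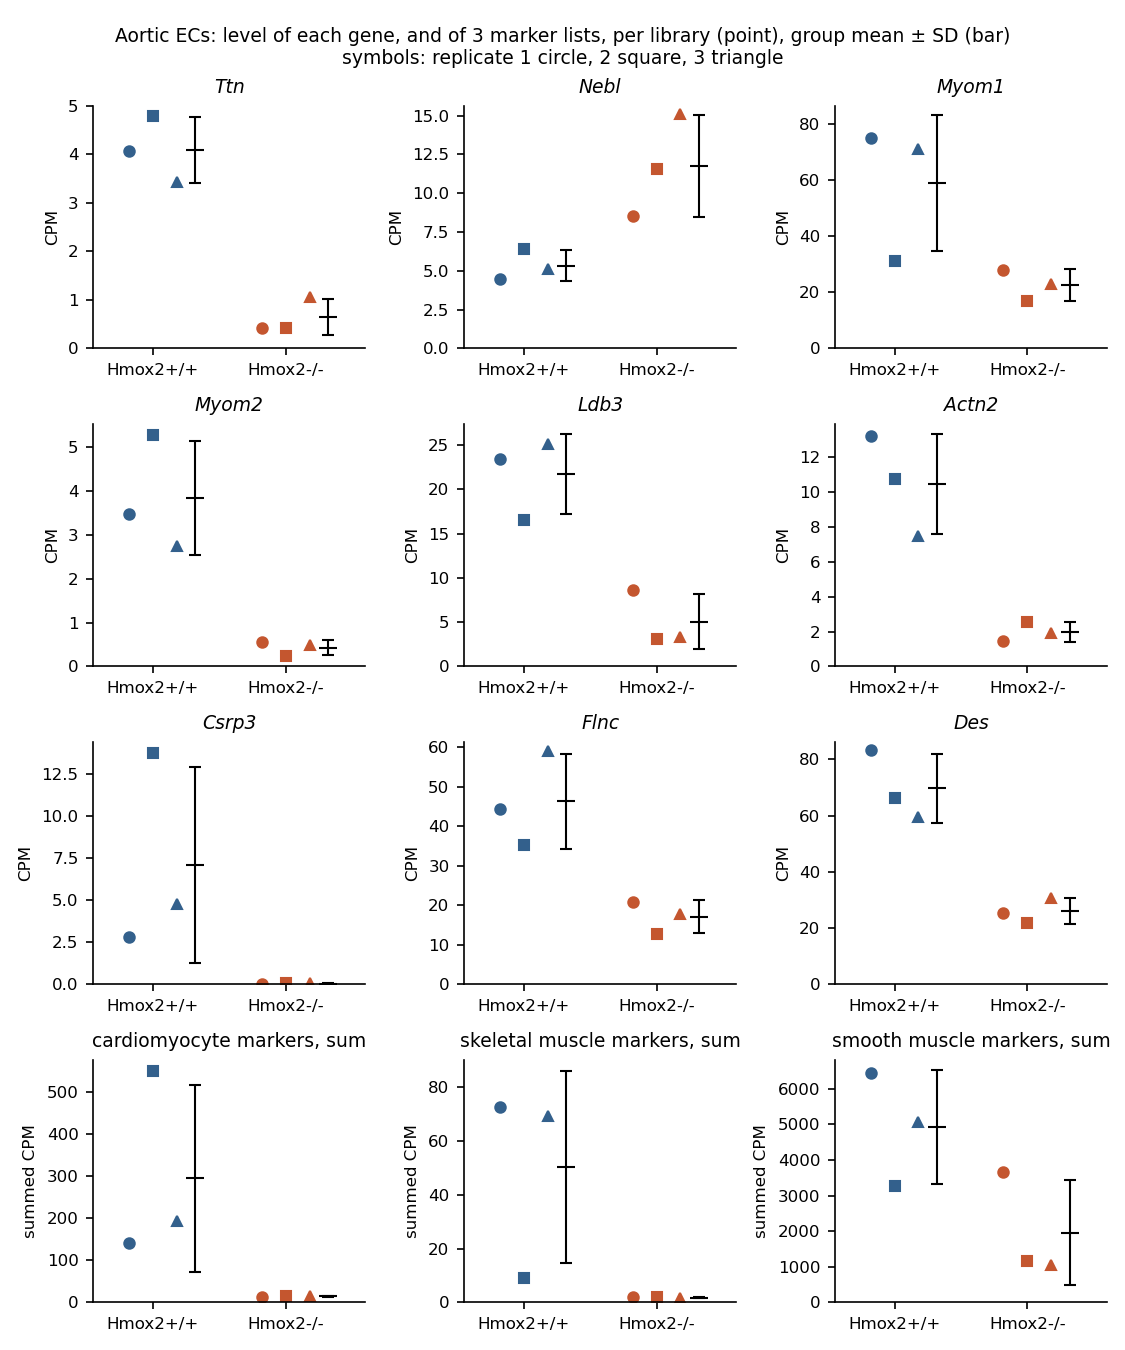
Level in aortic ECs of each of the 9 genes and summed level of the cardiomyocyte, skeletal muscle and smooth muscle markers, in CPM on linear axes from 0, per library (points, shaped by replicate number) with the group mean ± SD (black bars), n = 3 per genotype. All genes but Nebl and all 3 marker sums have lower means in Hmox2-/- (orange) than in Hmox2+/+ ECs (blue).

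The partner genes of the Z-disc and M-band followed in ECs. Of 27 Z-disc genes tested 11 were called lower and 1 higher, with a median log2 fold change of -0.73 against -0.02 over all genes. Tcap, which caps titin at the Z-disc (-2.69, adjusted p = 0.00271), the actin-binding Xirp2 (1.48 ± 0.65 to 0.0250 ± 0.022 CPM, adjusted p = 0.00489), Myoz2 (-3.25, adjusted p = 0.00807), Cmya5 (-1.78, adjusted p = 0.0132) and the small heat shock protein Hspb7 (-1.58, adjusted p = 0.0203) had the smallest adjusted p. Of 13 M-band and titin partners 4 were called lower, Mybpc3 (-5.34, adjusted p = 0.00183), the cardiac myosin-binding protein C, Trim54 (0.855 ± 0.186 to 0.0123 ± 0.021 CPM, adjusted p = 0.00639), Ankrd1 (-2.41, adjusted p = 0.0146) and Speg (-1.79, adjusted p = 0.0305). The 4 titin splicing factors had adjusted p of 0.057 (Rbm24, -1.81) to 0.497 (Rbm20, -0.42) in ECs.

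Hearts and ECs differed in their leading form of Flnc and Nebl and in their mix of Myom1 forms, which was seen only after the transcript values were examined and is given without a test. Because the EC libraries also held markers of other cells, which cells gave each form was not tested. Flnc-202 held 95.8% to 98.7% of Flnc counts in the 7 hearts, whereas Flnc-201 held 89.1% to 99.9% in the 6 EC libraries. The forms differ by 1 coding exon of 99 bases, exon 31 of 48 in Flnc-201, at chr6:29452798-29452896 on the plus strand. It is printed in capitals between 20 bases of its neighbours, above the junction that skips it in Flnc-202.

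Flnc-201: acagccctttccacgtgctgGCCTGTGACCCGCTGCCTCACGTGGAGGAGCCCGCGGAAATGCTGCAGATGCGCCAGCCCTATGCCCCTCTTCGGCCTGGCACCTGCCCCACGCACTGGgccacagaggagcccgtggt

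Flnc-202: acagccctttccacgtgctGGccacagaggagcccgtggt

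Nebl-202, the nebulette form of 28 exons and 1014 codons, held 77.8% to 86.2% of Nebl counts in hearts. In the EC libraries the leading form was Nebl-201 (52.6% to 92.0%), which has 7 exons and 270 codons. It corresponds to LIM-nebulette, also called LASP2, a protein of focal adhesions outside muscle. The rise in ECs lay on this form, which went from 3.91 ± 0.46 to 10.4 ± 2.43 CPM (log2 fold change 1.41, standard error 0.26, adjusted p = 0.0359 over 37705 transcripts, of which 2.77% were called lower and 2.97% higher). In heart the same Nebl-201 was at 31.8 ± 9.13 and 15.7 ± 3.49 CPM (log2 fold change -1.02, adjusted p = 0.0628). The longest whole coding exon that only one of the forms carries is given for each, in capitals between 20 bases of its neighbours, for Nebl-201 chr2:17534721-17534828 and for Nebl-202 chr2:17374340-17374489, both on the minus strand.

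Nebl-201: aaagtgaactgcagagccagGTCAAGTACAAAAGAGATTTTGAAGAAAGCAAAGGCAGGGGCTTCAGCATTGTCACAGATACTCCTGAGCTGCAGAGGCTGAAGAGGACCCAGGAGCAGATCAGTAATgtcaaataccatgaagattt

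Nebl-202: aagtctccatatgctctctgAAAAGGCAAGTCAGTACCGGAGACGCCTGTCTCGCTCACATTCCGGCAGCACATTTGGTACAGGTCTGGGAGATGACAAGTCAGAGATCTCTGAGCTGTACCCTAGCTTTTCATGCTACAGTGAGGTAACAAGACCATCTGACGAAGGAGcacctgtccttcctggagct

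Myom1-203 held 85.8% to 93.5% of Myom1 counts in hearts and 16.3% to 61.1% in ECs, where Myom1-202 held 22.2% to 55.1%, against 5.43% to 10.8% in hearts. Myom1-203 held the larger share of these forms in the first and the third Hmox2+/+ and the first Hmox2-/- EC library. Myom1-202 carries a coding exon of 294 bases, exon 18 of 38, at chr17:71389198-71389491 on the plus strand, and corresponds to the EH segment of embryonic heart myomesin. It is shown in capitals between 3 bases on either side, above the junction of Myom1-203 without it.

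Myom1-202: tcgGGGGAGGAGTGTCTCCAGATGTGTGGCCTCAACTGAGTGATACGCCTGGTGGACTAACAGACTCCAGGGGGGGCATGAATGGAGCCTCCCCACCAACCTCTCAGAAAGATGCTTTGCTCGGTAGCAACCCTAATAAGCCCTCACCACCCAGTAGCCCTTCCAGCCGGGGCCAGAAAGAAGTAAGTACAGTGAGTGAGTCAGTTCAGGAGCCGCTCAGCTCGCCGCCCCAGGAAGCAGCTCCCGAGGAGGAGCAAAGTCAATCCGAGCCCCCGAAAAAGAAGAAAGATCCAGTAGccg

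Myom1-203: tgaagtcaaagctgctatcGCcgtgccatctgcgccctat

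**Figure D5:**
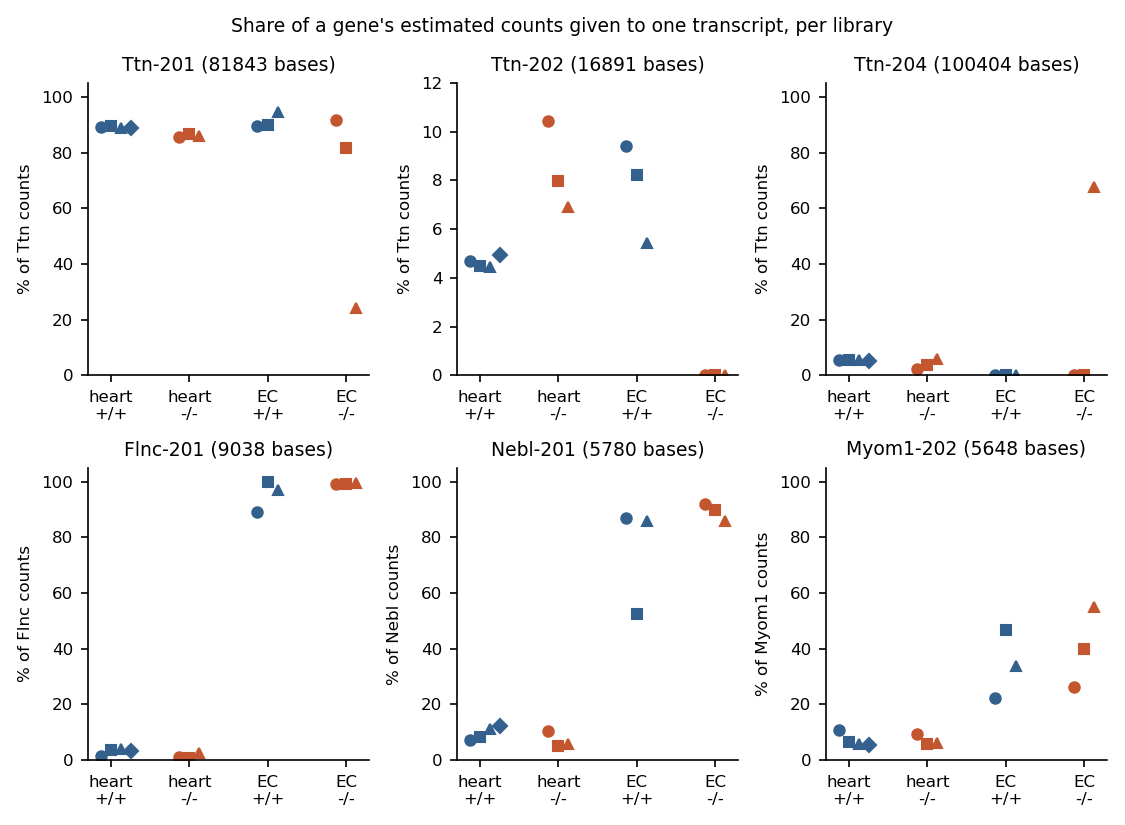
Share of a gene's estimated counts given to 1 transcript (vertical axes in percent, the Ttn-202 axis ending at 12) in each library of the 4 groups, with the transcript's length in the files above each panel. Ttn-202 takes 6.90% to 10.4% of Ttn counts in Hmox2-/- hearts, against 4.43% to 4.93% in Hmox2+/+ ones, and Flnc-201 and Nebl-201 separate ECs from hearts in both genotypes.

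Other transcripts of these genes that passed the test in heart were Myom2-201 (log2 fold change -0.65, adjusted p = 0.0481), Myom1-205 (-1.64, adjusted p = 0.0278), Csrp3-201 (0.48, adjusted p = 0.0436), Csrp3-204 (-1.54, adjusted p = 0.0333) and Des-201 (0.56, adjusted p = 0.0423). Csrp3-204, annotated as a transcript with a retained intron, is 2433 bases long, compared to 877 for Csrp3-201, and it fell from 6.15 ± 0.58 to 2.11 ± 0.68 CPM while the coding form rose. Few 31-base words of the 9 genes occur in other genes, at most 2.86% for Actn2, spread over 2223 other genes, and 2.05% for Myom1, whose words are shared with Myl12a.

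The effect of genotype differed between tissues for 7 of the 9 genes. ECs and hearts were collected as matched samples, but the labels do not say which libraries share a mouse, so that the fit over all 13 libraries took them as independent and its p-values do not allow for shared mice. In it, 12.7% of genes had an interaction called lower and 16.2% called higher in heart than in ECs. The log2 fold change in heart minus that in ECs was 7.48 for Csrp3, which rests on 4 counts in the Hmox2-/- ECs, 2.51 for Myom2, 2.32 for Actn2, 2.07 for Ldb3, 1.97 for Des and 1.20 for Flnc (adjusted p = 8.88e-05 to 0.00656), and -1.60 for Nebl (adjusted p = 0.00235). In counts, Csrp3 and Des thus rose in heart and fell in ECs, and Nebl did the reverse. Csrp3 was no longer higher in heart with the offset for the trend on length. That trend differed between tissues (rho -0.51 in heart and 0.11 in ECs), and the differences above were not freed of it. For Nebl the leading form also differed, Nebl-202 in hearts and Nebl-201 in ECs. By edgeR, for Ttn (1.18, standard error 0.49, adjusted p = 0.0861) and Myom1 (0.94, standard error 0.38, adjusted p = 0.0804) the difference between tissues did not pass the test. DESeq2 called both (adjusted p = 0.0255 and 0.0382). With counts rebuilt from TPM scaled by length, the interaction of Ttn was at -0.10 and that of Nebl was no longer called.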

How the data were processed

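The authors made the deposited values with Kallisto 0.44.0, by pseudoalignment of paired oligo-dT-selected reads to GENCODE transcripts, per library and without normalization between libraries. The deposited estimated counts and TPM are given per transcript. Per the labels the processing notes name the builds mm10 and GRCh38.p13. In every file the effective length was the length minus 179 bases for long transcripts, so it was not specific to a library, which affects the deposited TPM. Of 118489 transcripts, 115140 (97.2%) were matched by identifier to GENCODE M39, and the others held 0.755% to 1.01% of the counts. Estimated counts were summed per gene, rounded, filtered (filterByExpr, minimum count 10), TMM normalized and tested with edgeR 4.0.16 (R 4.3.3). The labels do not say that libraries were pooled, and p-values measure the spread between these samples. At most 1.39% of counts were identical between libraries of a group. limma 3.58.1 was used for log2(TPM + 1), DESeq2 1.42.0 as an alternative, and scipy 1.17.1 for exact permutation tests. The fits across genes were tested on simulated data.

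The genes, the lists of partners and of 7 cell types' markers and the tests were chosen with earlier results of these data known. Named were the 9 genes, the 5 called partners with the smallest adjusted p per list and tissue, Ttn transcripts with at least 5% of Ttn counts, the 5 genes most like Ttn and the 10 longest genes. A partner gene that this rule would name is not reported here. Alternatives were other scalings, filters, length corrections, a replicate block, all 13 libraries in 1 fit, a cardiomyocyte covariate and leaving out each library. An offset with lengths capped at 10000 bases and the ratio of Csrp3 counts without each library were added after seeing the data. Opposite-strand overlaps cannot be told apart in these counts if strand was not used.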

Additional observations from a re-analysis of the deposited data

Results flagged for a closer look

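For 7 of the 9 genes the effect of genotype differed between the tissues by the test of the interaction over all 13 libraries. The log2 fold change in heart minus that in ECs was -1.60 for Nebl, 2.51 for Myom2, 2.07 for Ldb3, 2.32 for Actn2, 7.48 for Csrp3, 1.20 for Flnc and 1.97 for Des. None of these values was corrected for the trend on length, which was stronger in heart than in ECs. In ECs 11 of 12 cardiomyocyte, 6 of 6 skeletal muscle and 1 of 6 smooth muscle markers were called lower, as were the genes listed here other than Nebl, which was called higher, and the part of these markers was not tested. The labels do not say which libraries share a mouse, and all were taken as independent. Among the 4 Hmox2+/+ hearts, no single library stood apart by Dixon's criterion in any of 14 sets of values looked at (the level of each of the 9 genes and the shares of Ttn transcripts), where chance would pick out about 1 set in 20.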

How the results depend on the processing

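Of the 4 genes called lower and 2 called higher in heart, 2 and 2 were called with counts rebuilt from TPM scaled by length or with an offset for average length, 1 and 1 with the offset for the trend on length, 2 and 1 with that trend capped at 10000 bases (added after seeing the data), 1 and 2 on the log2(TPM + 1) and log2(TPM + 0.1) scales, and 2 and 1 with all 13 libraries in 1 fit. The trend offset left Ttn at -0.081. Sign changes were Ldb3 at 0.029 (length-scaled counts and average-length offset) and 0.36 (both TPM scales), Actn2 at 0.19 (both TPM scales), Flnc at 0.30 (trend), 0.32 (capped), 0.025 (both TPM scales), and Csrp3 at -0.053 (trend and capped). Most of these settings change how length enters the values, and the cause was otherwise not tested.

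In ECs, Nebl was not called (0 genes higher) with length-scaled counts, the average-length offset, TPM or the covariate. Ttn was at -1.11, -1.10, -0.067 (TPM + 1), -0.43 (TPM + 0.1) and -1.70 (covariate) and was not called. With the covariate, which that fit cannot tell from genotype, 0 of the 9 were called lower and 3 genes in all. Of 2766 genes called in ECs, 1377 and 1582 were called on the TPM scales and 4319 with all 13 libraries. In the interaction 0 of the 9 were called lower with length-scaled counts, the average-length offset and both TPM scales, which put Ttn at -0.10, -0.15, -0.88 and -0.55. On the TPM scales 2 Ttn transcripts were called in heart instead of 1, and Ttn-221 was at 0.044 and 0.19.

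TPM scaling moved the median of all heart genes to 0.22 (TPM + 1) and 0.31 (TPM + 0.1) and the lower share of calls from 48.5% to 8.88% and 9.26%. It was 44.6%, 59.5% and 56.9% in ECs and 43.9%, 19.8% and 18.7% for the interaction, where upper-quartile scaling gave 54.0% and the trend offset 32.01%, or 31.9% with lengths capped. In ECs a fit of all 13 libraries gave 55.4%.

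Without 1 library at a time, 2888 to 5686 genes were called in heart (4618 with all) and 638 to 3596 in ECs, and 2 to 4 of the 9 were called lower and 1 to 2 higher in heart and 5 to 8 lower and 0 to 1 higher in ECs. Called Ttn transcripts numbered 0 to 2 in heart and 0 to 1 in ECs, Ttn-214 was at -0.16 to 0.69 and Ttn-221 at -0.51 to 0.18.

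With the replicate number as a block, 2899 genes were called in heart, 2 of the 9 lower and 1 higher, and 0 Ttn transcripts in either tissue. Same-numbered libraries of both genotypes correlated at -0.03, 0.08 and 0.04 in heart and 0.18, 0.04 and 0.09 in ECs, so that the numbers were not shown to pair libraries, and not every library correlated best with its own number. The low depth of the first Hmox2+/+ heart, and counts under 30 for Ttn in Hmox2-/- ECs, limit precision.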
